A study of Mus musculus with 3 samples.

Results

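Rag1-positive B cells are the barcodes that carry RNA of both the B cell receptor and the recombinase Rag1 but nearly none of the earlier surrogate light chain. A barcode was kept with 500 or more unique molecular identifiers (UMIs, counted RNA molecules), 250 or more genes and no more than 15% of UMIs from mitochondrial genes. A member had at least 3 UMIs of Cd79a and Cd79b together, at least 1 of Rag1, at most 1 of Vpreb1, Igll1 and Dntt together, and none of Cd3d, Cd3e and Cd3g. This gave 465 of 20504 kept cells: 451 in the library labelled 1d, 12 in 7d and 2 in Ctrl. The members were thus chosen by their measured counts of Rag1, Cd79a, Cd79b, Vpreb1, Igll1, Dntt and Cd3 genes, and the values of these genes are descriptions only.

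B cells assemble their receptor genes in the bone marrow. The heavy chain is joined first and is tested at the surface of large, dividing pre-B cells together with the surrogate light chain, made of the Vpreb and Igll1 proteins. The cells then stop dividing, lose the surrogate chain, open the recombinase genes Rag1 and Rag2 again and join a kappa or lambda light chain. A cell that now carries IgM is an immature B cell. It may recombine its light chain again if its receptor binds self, and gains IgD and MHC class II as it matures.

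The cells came from the jaws of wild-type C57BL/6 male mice, 10 weeks old. Ctrl mice had no treatment, while the mice of 1d and 7d had received 10 Gy to the head and neck and were killed 1 or 7 days later. Each library pooled the digested jaw tissue of 8 mice, and the cells were frozen and thawed before 10x Genomics 3' profiling. With 1 library per group there is no replicate and no test between groups, differences between mice cannot be seen, and all intervals (95%) cover counting error only.

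The libraries kept 8880, 5127 and 6497 cells for Ctrl, 1d and 7d, with a median of 2463, 5196 and 3935 UMIs. Members had a median of 2456 UMIs and 1230 genes in 1d and 2142 UMIs and 1092 genes in 7d. The 12 members of 7d held 32734 UMIs together, against 1490828 in 1d, so that 1 UMI in 7d is a level of 30.5 counts per 1000000 UMIs. Libraries shared 20, 24 and 12 barcodes by pair, and 4 members of 1d carried a barcode also present in Ctrl. Levels below are counts per 1000000 UMIs summed over the named cells, and a ratio is 1 such level over another.

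Both comparison sets used the same filter and the same minimum of Cd79a and Cd79b. Ighd-positive B cells had IgD heavy chain RNA, no Rag1 UMI, at most 1 surrogate light chain or Dntt UMI and no Cd3 UMI (859 cells in Ctrl, 354 in 1d and 240 in 7d). Surrogate light chain positive cells had at least 2 UMIs of Vpreb1, Igll1 and Dntt (1, 230 and 166 cells), the pattern of pro-B and large pre-B cells.

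Rag1-positive B cells were found mainly in 1d. They were 0.0225% of kept cells in Ctrl (interval 0.00273 to 0.0813), 8.80% in 1d (8.04 to 9.61) and 0.185% in 7d (0.0955 to 0.322). The share in 7d was 0.0210 times that in 1d (0.0108 to 0.0370). Between the same libraries, Ighd-positive cells went from 6.90% to 3.69% of kept cells, a ratio of 0.535 (0.452 to 0.632). Surrogate light chain positive cells went from 4.49% to 2.56%, a ratio of 0.570 (0.464 to 0.698). The ratio of the Rag1-positive cells lay below both of these, with intervals that did not overlap.

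There were 1.96 Rag1-positive cells per surrogate light chain positive cell in 1d (1.67 to 2.31) and 0.0723 in 7d (0.0366 to 0.130). The earlier cells of 7d did carry Rag1: 102 of 166 (61.4%) had a Rag1 UMI, beside 118 of 230 (51.3%) in 1d. Their light chain RNA was scarcer in 7d. An Igkc UMI was seen in 64.8% of them in 1d and 16.3% in 7d, at similar median depths of 8621.5 and 9086 UMIs. As a share of all cells with at least 3 Cd79a and Cd79b UMIs and no Cd3 UMI, members were 0.143% in Ctrl, 29.2% in 1d and 2.14% in 7d. These are shares of captured cells, and numbers of cells per jaw were not measured.

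**Figure D1:**
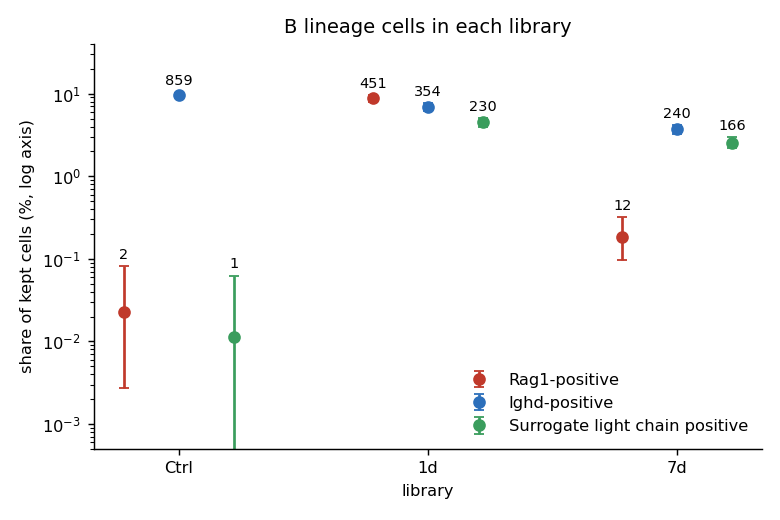
Share of kept cells (percent, log axis) for Rag1-positive, Ighd-positive and surrogate light chain positive B cells in the 3 libraries, with exact 95% intervals for counting error and the number of cells above each point. Rag1-positive cells stood at 8.80% in 1d and at 0.185% in 7d, a wider gap than for either other set.

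Free RNA was read in neutrophils (at least 20 UMIs of S100a8 and S100a9) and T cells (at least 2 Cd3 UMIs). Both sets were required to have no Cd79a or Cd79b UMI, which leaves out droplets with free B cell RNA of those genes. The shares of B cell genes in them may therefore understate free RNA. Rag1 was almost absent from these cells. In 1d, 1 of 1818 neutrophils (median 6752.5 UMIs) and 0 of 133 T cells (median 4451 UMIs) had a Rag1 UMI, although both were deeper than the members. In 7d the counts were 0 of 849 neutrophils and 0 of 1483 T cells. Ly6d, which marks lymphoid cells committed to the B lineage, was seen in 83.6% of members of 1d, 1.54% of its neutrophils and 0.752% of its T cells. Igkc was seen in 89.1%, 8.09% and 5.26% of the same cells. Ighm was more widespread, in 99.8%, 23.5% and 41.4% of them, at levels of 7913, 40.7 and 139. UMIs of the granulocyte gene S100a8 were widespread, in 69.0% of members and 75.9% of T cells of 1d. The parts of free RNA and of doublets in them were not tested.

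Most members were near the lower bound on Rag1. In 1d, 191 had 1 Rag1 UMI, 111 had 2 and 149 had 3 or more, with a highest value of 11. Ly6d was detected in 80.1%, 85.6% and 86.6% of these groups, whose median depths were 2244, 2545 and 2755 UMIs. Just outside stood 512 cells of 1d with neither Rag1 nor Ighd UMIs. They had a similar median depth (2503 UMIs), with Ly6d in 77.7% and Spib in 59.6%, but a Cd74 level of 4077 beside 1100 in members with 1 Rag1 UMI. Only 7 cells missed on Cd79 by 1 UMI, 14 on the surrogate chain and 1 on Cd3, while 10 members stood at the Cd79 minimum. In 1d, 121 members also had an Ighd UMI.

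Of the markers of the label, Rag1 and Cd79b were fixed by the rule. The other 3, Ly6d, Ighm and Spib, were present in members of 1d and 7d, and in Ctrl Spib had no UMI. Cell size was not measured. The median of 2456 UMIs in 1d lay below the 8621.5 of surrogate light chain positive cells and near the 2715.5 of Ighd-positive cells. Of markers for other cells, the 3 T cell receptor constant genes, which the rule did not use, had no UMI in any member, and the NK list reached 17.4 counts per 1000000 in 1d and 0 in 7d. In 1d the summed levels were 241 for 5 of 5 plasma cell markers, 376 for 5 of 5 monocyte markers, 389 for 5 of 5 mesenchymal markers and 32.2 for 3 of 4 plasmacytoid dendritic markers. Ighd-positive cells of 1d had 163, 433, 45.8 and 95.6 in the same order. Mesenchymal markers were thus higher in members, at up to 1.94% of a member's UMIs. All 6 neutrophil markers had UMIs in 1d members (17822 together, between 0 and 32.2% of a cell's UMIs), near the 14797 in Ighd-positive cells. Erythroid markers stood at 10656 in 1d and 115201 in 7d, and 1 member of 7d held 707 of its 709 Hba-a1 UMIs.

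The comparison with Ighd-positive cells of the same library asks how these cells differ from B cells further along. In 1d, 643 of 6264 compared genes (10.3%; at least 50 UMIs over both sets) had a ratio of at least 2 or at most 0.5, of which 347 (5.54%) were higher in Rag1-positive cells and 296 (4.73%) lower. Ighd-positive cells of 1d were themselves mixed. Against the 90 of them with at least 3 Ighd UMIs, the count was 1072, with 76.3% higher. In 7d, 1110 of 2506 genes (44.3%) were past the same ratios, 364 (14.5%) higher and 746 (29.8%) lower. The part of counting error in this larger share, with 12 members, was not tested. TMM scaling, which centres the bulk of genes, put the median of all genes in 7d at -0.56 instead of 0.03 on the log2 scale. Of the genes past 2-fold in 7d it left 12.1% higher instead of 32.8%.

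The markers of the members' stage had much the same level in both irradiated libraries. Ly6d stood at 2266 in members of 1d and 2016 in those of 7d. In Ighd-positive cells it was 473 in Ctrl, 1442 in 1d and 401 in 7d, so that the ratio was 1.57 in 1d (1.48 to 1.66) and 5.02 in 7d (3.80 to 6.56). Spib, a factor of the PU.1 family, was at 594 and 642 in members and at 128, 318 and 96.0 in Ighd-positive cells. Ighm, the IgM heavy chain, was at 7913 and 7179 in members and at 2222, 4799 and 2511 in Ighd-positive cells. For all 3 genes the Ighd-positive cells of 1d stood between those of Ctrl or 7d and the members. Sox4, a factor of lymphoid progenitors, showed the widest spread: 1678 and 1650 in members, and 50.8, 634 and 103 in Ighd-positive cells. The 90 cells of 1d with at least 3 Ighd UMIs had a Sox4 level of 230.

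Genes of V(D)J joining were mostly higher in members of 1d than in Ighd-positive cells. Rag1 lies at chr2:101638282-101649501 (mm10), next to Rag2, with which it forms the enzyme that cuts receptor gene segments. Rag1 stood at 721 in members of 1d and 886 in those of 7d, by choice. Rag2, which the rule did not use, stood at 30.9 in members of 1d and 3.95 in Ighd-positive cells, a ratio of 7.81 (3.12 to 25.2). A single Rag2 UMI was seen in members of 7d, and none in Ighd-positive cells of Ctrl or 7d. Without the genes of the cell rules, 5 of 8 compared genes of this list had a ratio of at least 2 in 1d and none of at most 0.5. Of all genes, 5.54% and 4.73% did. The list's median log2 ratio was 1.11 beside 0.07 over all genes. Xrcc6, the Ku70 end-binding protein, was at 380 against 97.2 (ratio 3.91, 3.21 to 4.79). Polm, the polymerase mu of light chain joints, was at 160 against 40.3 (3.98, 2.93 to 5.50). Lig4, which seals the ends, and Paxx had ratios of 2.26 and 2.11.

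Signalling genes of the receptor differed in both directions. Of 14 compared genes in 1d, 2 were at least 2-fold higher and 2 at least 2-fold lower, beside 5.54% and 4.73% of all genes. The median log2 ratio of the 14 was 0.35. Blnk, the adaptor that passes the receptor signal and restrains pre-B cell growth, was at 1103 in 1d and 1314 in 7d. In Ighd-positive cells it was at 170, 397 and 174 in Ctrl, 1d and 7d, giving ratios of 2.78 (2.51 to 3.08) in 1d and 7.57 (5.25 to 10.7) in 7d. Vpreb3, which binds new heavy and light chains inside the cell, was at 1814 and 1741 in members and at 111, 762 and 151 in Ighd-positive cells. The kinase Syk had a ratio of 1.98 in 1d (1.75 to 2.24) and 2.42 in 7d (1.48 to 3.75). The inhibitory receptor Cd22 was lower, at 12.7 against 100 in 1d (0.127, 0.0740 to 0.207), and so was the phosphatase Ptpn6 (0.329, 0.252 to 0.425). Cd22 had 2 UMIs in 7d, a ratio of 0.605 with an interval of 0.0721 to 2.26 that spans 1.

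Sequences upstream of 3 receptor genes show a short pattern found in most matched promoters of the receptor list, whether its genes were higher or lower, and Rag1 is printed beside them. The E box CAGGTG, bound by the B lineage factor E2A, was searched on both strands in the 250 bases before each gene's start, in the promoters of RefSeq (GRCm38.p6). It was found in 17.2% of 32851 promoters taken singly. In the receptor list, 14 of 19 genes were matched, and 11 of these 14 (78.6%) had it in any of their promoters. Among these were Blnk, higher in members, Cd22, lower in members, and Cd79a, which the rule used. Counted in the same way, it was in 1 of 15 matched genes of the V(D)J list (6.67%), Rag1. It was in 3 of 21 matched genes (14.3%) named higher than in Ighd-positive cells. The 250 bases of each are printed 5' to 3' on the gene's strand, with CAGGTG, or its complement CACCTG, in capitals.

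Rag1 (chr2:101649533-101649782, minus strand): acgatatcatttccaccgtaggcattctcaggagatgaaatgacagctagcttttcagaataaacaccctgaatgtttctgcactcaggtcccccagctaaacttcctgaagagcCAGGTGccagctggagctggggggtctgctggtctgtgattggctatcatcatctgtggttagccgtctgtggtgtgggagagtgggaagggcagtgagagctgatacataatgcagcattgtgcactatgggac
Cd79a (chr7:24897247-24897496, plus strand): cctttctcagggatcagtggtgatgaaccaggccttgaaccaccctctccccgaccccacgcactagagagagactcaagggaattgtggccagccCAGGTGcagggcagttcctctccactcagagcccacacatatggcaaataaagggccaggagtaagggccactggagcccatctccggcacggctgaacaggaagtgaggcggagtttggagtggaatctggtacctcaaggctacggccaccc
Blnk (chr19:40994222-40994471, minus strand): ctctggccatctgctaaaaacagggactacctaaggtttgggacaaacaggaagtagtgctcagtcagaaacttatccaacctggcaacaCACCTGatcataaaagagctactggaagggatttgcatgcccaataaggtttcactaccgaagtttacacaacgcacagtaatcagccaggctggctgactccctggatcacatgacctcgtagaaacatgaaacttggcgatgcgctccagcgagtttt
Cd22 (chr7:30879029-30879278, minus strand): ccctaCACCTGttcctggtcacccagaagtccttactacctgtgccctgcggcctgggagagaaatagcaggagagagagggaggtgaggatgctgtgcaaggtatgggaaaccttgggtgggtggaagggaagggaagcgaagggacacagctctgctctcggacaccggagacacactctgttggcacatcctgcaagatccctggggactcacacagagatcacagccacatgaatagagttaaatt

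Transcription factors of the lineage were higher or lower by name. Of 25 compared in 1d, 5 had a ratio of at least 2 and 4 of at most 0.5 (median log2 ratio 0.57), beside 5.54% and 4.73% of all genes. Tcf3, which encodes E2A, was at 667 in members and 255 in Ighd-positive cells of 1d (2.62, 2.30 to 2.97). Myb, needed in early lymphoid cells, had a ratio of 2.55 (2.27 to 2.87), and Bach2, a repressor, 2.36 (2.12 to 2.64). Lef1, a factor of early B and T cells, was at 165 against 33.2 (4.97, 3.57 to 7.07). Lower were Mef2c (232 against 602, ratio 0.386), Rel, the NF-kB subunit of mature B cells (268 against 649, ratio 0.412), Bcl11a (0.454) and Bcl6 (0.489). In 7d, 11 of 23 factors were at least 2-fold higher and 2 at least 2-fold lower, beside 14.5% and 29.8% of all genes. With TMM scaling the factors past 2-fold were 7 higher and 5 lower. Ebf1, the founding factor of the lineage, was at 3685 and 3910 in members, and at 1616, 2137 and 1398 in Ighd-positive cells.

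Receptors for growth and homing differed in both directions. Il7r, the interleukin 7 receptor of B cell precursors, was at 276 in members of 1d and 77.4 in Ighd-positive cells (3.57, 2.86 to 4.50). It was at 183 in members of 7d, from 6 UMIs, and at 5.39 and 6.16 in Ighd-positive cells of Ctrl and 7d. Cxcr4, the receptor that holds cells in the marrow, was at 1617 and 1772 in members and 973, 895 and 719 in Ighd-positive cells, a ratio of 1.81 in 1d (1.68 to 1.94). Gfra1, a receptor for glial growth factors, had a ratio of 3.30. Receptors of follicles and lymph nodes were lower in 1d. Cxcr5, which draws cells into follicles, had a ratio of 0.118 and Ccr7, which draws them into lymph nodes, of 0.323. Fcer2a, the CD23 of follicular B cells, had 3 UMIs in 451 members (0.0182, 0.00371 to 0.0543). Gpr183, which guides cells within follicles, had a ratio of 0.0408 and P2ry10 of 0.0392. The list of 17 held 3 at least 2-fold higher and 8 at least 2-fold lower, beside 5.54% and 4.73% of all genes. Its median log2 ratio of -0.68 became 0.47 with cells thinned to 1000 UMIs and 0.42 over genes with at least 200 UMIs.

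**Figure D2:**
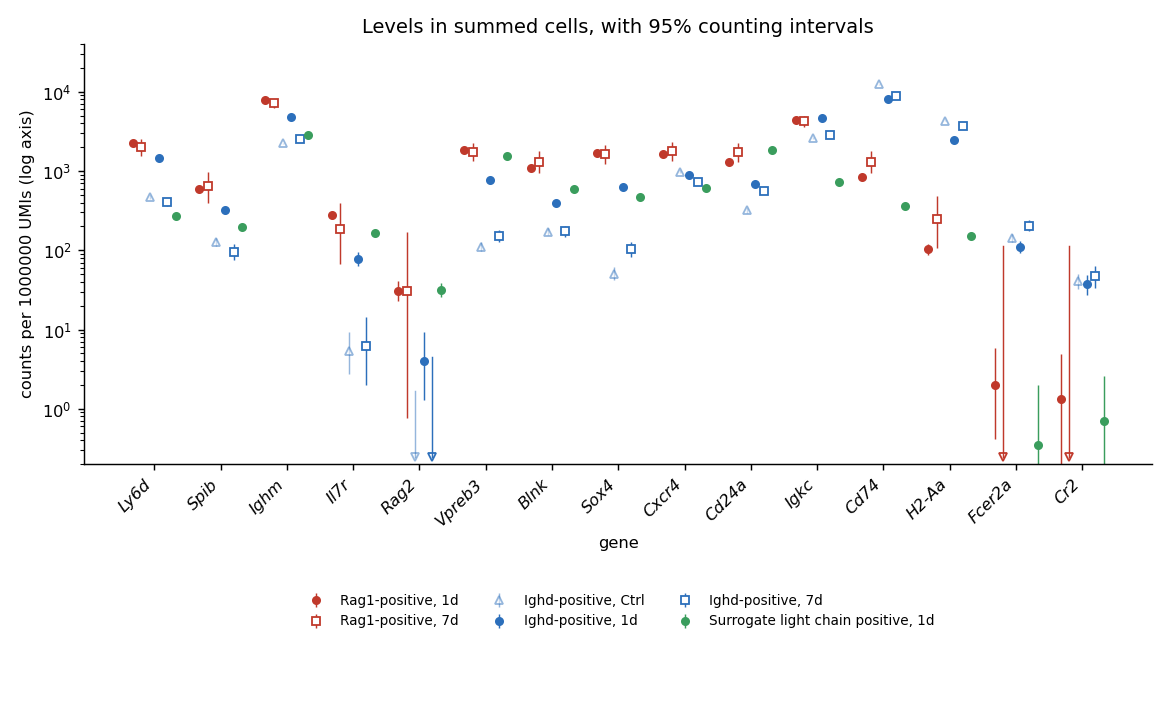
Counts per 1000000 UMIs (log axis) of 15 genes in Rag1-positive cells of 1d and 7d, Ighd-positive cells of 3 libraries and surrogate light chain positive cells of 1d, with 95% counting intervals and downward triangles for genes without a UMI. The red points of 1d and 7d lay close together for most genes, while Ighd-positive cells of 1d lay between them and those of Ctrl and 7d for Ly6d, Spib, Ighm and Sox4.

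MHC class II genes were the list furthest from 1. All 12 compared genes had a ratio of at most 0.5 in 1d, beside 4.73% of all genes, with a median log2 ratio of -3.37. Cd74, the invariant chain that guides class II to its compartment, was at 830 in members of 1d and 1314 in those of 7d. It was at 12341, 8000 and 8908 in Ighd-positive cells of Ctrl, 1d and 7d, so that the ratio was 0.104 in 1d (0.0978 to 0.110) and 0.147 in 7d (0.107 to 0.199). H2-Aa stood at 103 against 2432 in 1d (0.0425, 0.0359 to 0.0499) and H2-Eb1 at 71.8 against 1890 (0.0380, 0.0310 to 0.0461). Ciita, the coactivator that switches these genes on, was at 10.1 against 71.1 (0.142, 0.0761 to 0.246). The costimulatory genes Cd86 and Cd83 had ratios of 0.0969 and 0.0931. In 7d, all 11 compared genes had a ratio of at most 0.5, beside 29.8% of all genes, but 7 of them had no UMI in the 12 members. H2-Eb1 was at least 28.9-fold lower there, at a floor of 3 counts over the members. With all 7 at that floor, the median log2 ratio was -1.54 instead of -3.65.

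Within single cells, class II RNA separated the members from most IgD cells. Cd74, H2-Aa, H2-Ab1 and H2-Eb1 together made up a median of 0.0416% of a member's UMIs in 1d, with 172 of 451 at 0 and a highest of 3.27%. In 7d the median was 0.0884%, with 5 of 12 at 0 and a highest of 0.765%. Ighd-positive cells had medians of 2.80% in Ctrl, 1.49% in 1d and 2.72% in 7d. The lower quartile of those of 1d was 0.209%, and the member and Ighd-positive ranges overlapped. A Cd74 UMI was seen in 52.8% of members of 1d, 11.3% of T cells and 7.48% of neutrophils. The members' share lay above that of these deeper cells, which were chosen without Cd79a or Cd79b UMIs.

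**Figure D3:**
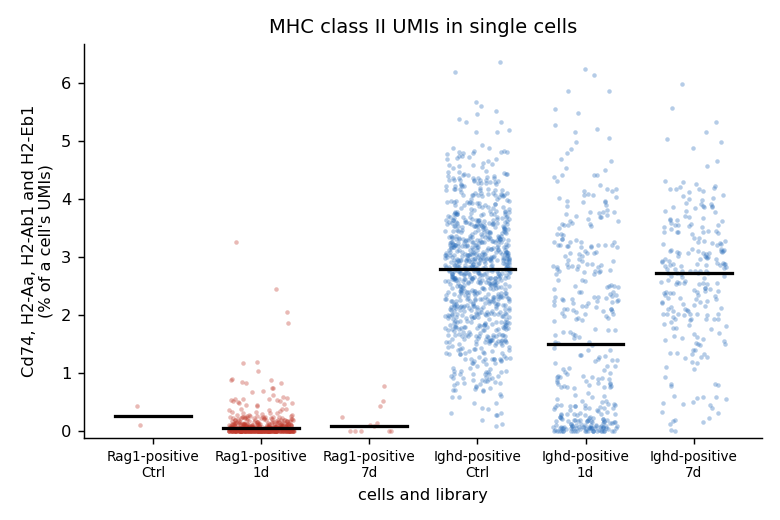
Share of each cell's UMIs from Cd74, H2-Aa, H2-Ab1 and H2-Eb1 (percent) in Rag1-positive and Ighd-positive cells of each library; each point is a cell and bars are medians. Members lay near 0 in 1d (median 0.0416%), while Ighd-positive cells of 1d filled the range from 0 to above 6% (median 1.49%).

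Class II promoters are known for shared X and Y boxes, to which the complex that recruits Ciita binds. The sequences of 6 class II genes that were lower together are given for the 120 bases before the start. Of the 12 genes of the class II list, 7 were matched in RefSeq, and a gene was counted with a match in any of its promoters. The Y box core ATTGG was found in 7 of 7 genes, over 250 bases and both strands. It was in 33.8% of all 32851 promoters taken singly. H2-DMa had a promoter with a match and another without. A part of the X box, AGNAAC, was found in 4 of 7 and in 42.3% of all. Capitals mark AGNAAC and ATTGG, or CCAAT where ATTGG lies on the other strand. In H2-Eb1, AGNAAC ran from -92 to -87 and ATTGG from -59 to -55 before the start. In H2-Ob they ran from -88 to -83 and from -57 to -53, and in H2-Oa from -77 to -72 and from -43 to -39.

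H2-Aa (chr17:34287824-34287943, minus strand): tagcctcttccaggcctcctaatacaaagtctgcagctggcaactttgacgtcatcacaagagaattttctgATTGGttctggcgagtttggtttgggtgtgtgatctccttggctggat
H2-Eb1 (chr17:34305747-34305866, plus strand): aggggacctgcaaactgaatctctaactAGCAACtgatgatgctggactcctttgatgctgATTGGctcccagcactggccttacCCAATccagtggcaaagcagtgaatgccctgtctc
H2-DMb1 (chr17:34153071-34153190, plus strand): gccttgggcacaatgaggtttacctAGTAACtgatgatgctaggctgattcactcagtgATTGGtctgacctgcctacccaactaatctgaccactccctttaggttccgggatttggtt
H2-DMb2 (chr17:34145129-34145248, plus strand): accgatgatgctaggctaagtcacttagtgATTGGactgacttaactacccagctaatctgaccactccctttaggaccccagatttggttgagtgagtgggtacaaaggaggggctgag
H2-Oa (chr17:34092259-34092378, plus strand): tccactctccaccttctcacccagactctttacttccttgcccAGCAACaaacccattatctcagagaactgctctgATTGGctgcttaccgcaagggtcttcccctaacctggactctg
H2-Ob (chr17:34238785-34238904, plus strand): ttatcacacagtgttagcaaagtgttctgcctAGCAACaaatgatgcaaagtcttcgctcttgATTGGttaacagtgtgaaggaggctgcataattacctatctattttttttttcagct

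Of 13 compared p53 targets in 1d, 4 had a ratio of at least 2 against IgD cells of the same irradiated library and none of at most 0.5. Their median log2 ratio was 0.40 beside 0.07 over all genes, of which 5.54% were at least 2-fold higher. Trp53inp1, a p53-induced promoter of cell death, was at 429 against 166 (2.58, 2.21 to 3.03). Btg2, which slows division, was at 1468 against 675 (2.17, 2.01 to 2.36). Rrm2b, a nucleotide supplier for repair, had a ratio of 3.35. Bcl2l1, which the list held and which is counted again below among apoptosis regulators, had a ratio of 2.69. Cdkn1a, the p53 target that stops the cell cycle, was at 93.9 against 82.2 (1.14, 0.881 to 1.49), an interval that spans 1.

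Relatives of BCL2 differed in opposite directions. Bcl2l1, which encodes BCL-XL, was at 168 in members of 1d and 62.4 in Ighd-positive cells (2.69, 2.08 to 3.51). Bcl2 was at 11.4 against 45.8 (0.249, 0.136 to 0.433) and Bcl2a1b at 7.38 against 75 (0.0983, 0.0475 to 0.184). Bmf, which promotes death, was at 165 against 67.1 (2.46, 1.91 to 3.18), and the survival kinase Pim2 at 99.9 against 39.5 (2.53, 1.83 to 3.56). Over 15 genes, 3 were at least 2-fold higher, 2 at least 2-fold lower and the median log2 ratio was 0.10. Of all genes, 5.54% were at least 2-fold higher and 4.73% at least 2-fold lower. The interferon list (0 of 14 at least 2-fold higher, 2 lower) had a median log2 ratio of -0.10 and the glucocorticoid list (2 of 12 higher, none lower) one of 0.28. The immediate early list had a median log2 ratio of -0.21, which was 0.17 against cells with at least 3 Ighd UMIs.

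Other genes furthest from 1 in both libraries, named by the rule, included Cecr2, of a chromatin remodelling complex. It was at 834 and 1253 in members and at 31.5, 241 and 45.5 in Ighd-positive cells, ratios of 3.46 (3.05 to 3.94) in 1d and 27.5 (17.2 to 44.1) in 7d. Dnajc7, a cochaperone, was at 1217 in members of 1d (ratios 3.06 and 12.3). Rhoh, a small GTPase of lymphocytes, had ratios of 2.59 and 6.00, Traf6, a signalling adaptor, 3.44 and 7.64, and Cbfa2t3, a corepressor, 2.76 and 5.91. Genes of the secretory pathway were among them: Sec11c of the signal peptidase (2.79 and 3.74), the translocon protein Sec63 (2.55 and 5.17) and Herpud1 of protein degradation (2.25 and 5.71). On the lower side, beside class II genes, stood Nr4a1, a gene induced by antigen receptor signals (0.226 in 1d, 1 UMI in 7d), Lcp1, an actin bundler (0.371 in 1d, 1 UMI in 7d), and Apoe (0.105 in 1d, no UMI in 7d).

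With the rule read in 1d, without a demand on 7d, the genes furthest from 1 included Reln, which encodes a secreted matrix protein (60.4 against 7.90, ratio 7.64, 3.97 to 16.5). Col5a3, a collagen chain, was at 118 against 20.5 (5.75, 3.79 to 9.04), and the sodium pump subunit Atp1b1 at 1830 against 485 (3.77, 3.46 to 4.12). Serinc5 had a ratio of 4.52 and Akap12, a scaffold protein, of 3.64. In 7d, 4 of these lay further from 1. Atp1b1 had a ratio of 46.2 (28.9 to 75.3), Akap12 of 53.2 (27.3 to 109) and Serinc5 of 37.2 (17.0 to 84.7). Col5a3 had a ratio of 223 (30.9 to 9789), from 9 UMIs in members, and was seen in 1 of 240 Ighd-positive cells of 7d. Lower were Bank1, a B cell adaptor (0.0669, 0.0313 to 0.127), and Ms4a4c (0.0515). Ly6a, the Sca-1 antigen, had no UMI in 451 members against a level of 39.5 in Ighd-positive cells, so that it was at least 19.6-fold lower at a floor of 3 counts over the members.

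The comparison with surrogate light chain positive cells of 1d shows the difference from the stage before. Of 7514 compared genes, 1529 (20.3%) were past 2-fold, 721 (9.60%) higher in Rag1-positive cells and 808 (10.8%) lower. Depth differed between the sets, at medians of 2456 and 8621.5 UMIs, and its part in the ratios was not tested.

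Light chain RNA was higher in members. Igkc was at 4348 in members of 1d and 734 in surrogate light chain positive cells (5.92, 5.63 to 6.22). Iglc1 was at 414 against 3.89 (106, 59.0 to 214), Iglc3 at 287 against 10.6 (27.1, 18.7 to 40.6) and Iglc2 at 348 against 27.9 (12.5, 9.82 to 16.0). All 5 constant genes other than Ighd were at least 2-fold higher, Ighm included (2.78, 2.71 to 2.86), beside 9.60% of all genes. The median log2 ratio of the 5 was 3.63 beside 0.06 over all genes. Ly6d was at 2266 against 271 (8.36, 7.73 to 9.06) and Spib at 594 against 197 (3.02, 2.72 to 3.37). Rag1 was at 721 against 139, while Rag2 did not differ beyond counting error (30.9 and 31.8, ratio 0.969, 0.664 to 1.40). Vpreb3 had a ratio of 1.17 (1.11 to 1.23), which was 0.851 with cells thinned to 1000 UMIs.

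Genes of DNA copying were lower in members. Of 20 S phase genes, 19 had a ratio of at most 0.5 and none of at least 2 (median log2 ratio -1.69), beside 10.8% and 9.60% of all genes. Mcm2, of the replicative helicase, was at 47.0 against 202 (0.233, 0.179 to 0.299) and Pcna, the polymerase clamp, at 363 against 813 (0.446, 0.406 to 0.490). Of 20 G2 and M phase genes, 8 had a ratio of at most 0.5 (median log2 ratio -0.91), among them Ccnb1 (0.311) and Top2a (0.460).

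Further lists differed from the earlier cells in both directions, and their counts stand beside 9.60% of all genes at least 2-fold higher and 10.8% at least 2-fold lower. Of 10 compared genes of V(D)J joining outside the cell rules, 4 were at least 2-fold higher and 1 at least 2-fold lower (median log2 ratio 0.16). The interferon list had 0 of 19 genes at least 2-fold higher and 5 at least 2-fold lower (median log2 ratio -0.12). MHC class II had 2 of 7 higher and none lower (median -0.33). Of 15 genes of NF-kB and light chain editing, 11 were at least 2-fold higher and 1 at least 2-fold lower. In this list Pim2 was at 99.9 against 7.07 (14.1, 8.83 to 23.8) and the inhibitor Nfkbia at 734 against 324 (2.27, 2.08 to 2.48). Of 14 glucocorticoid responsive genes, 8 were at least 2-fold higher and none at least 2-fold lower, with Btg1, an inhibitor of division, at 3699 against 946 (3.91, 3.73 to 4.10) and Tsc22d3 at 229 against 77.4 (2.96, 2.49 to 3.53). Of 18 p53 targets, 5 were at least 2-fold higher, Btg2 (3.30) and Trp53inp1 (2.43) among them. The immediate early and dissociation list had 10 of 22 genes at least 2-fold higher and none at least 2-fold lower (median log2 ratio 0.48). The lists overlap: Btg2 is also in the immediate early list, and Nfkbia in the glucocorticoid list. The part of tissue digestion in these ratios was not tested. Of 25 lineage factors, 10 were at least 2-fold higher, led by Sox4 (3.57, 3.34 to 3.82). Among genes named by the rule were the adhesion gene Cd2 (225 against 20.9, ratio 10.8), Il2ra, the CD25 long used to sort small pre-B cells (174 against 21.2, ratio 8.22, 6.19 to 11.1), and Socs1, which limits cytokine signals (385 against 54.1, ratio 7.12, 5.94 to 8.56). Lower were Crip1 (270 against 1892, ratio 0.143), Eng (3 UMIs, ratio 0.0268, 0.00549 to 0.0795) and Egfl7, which had no UMI in members and was at least 20-fold lower at the floor of 3 counts.

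**Figure D4:**
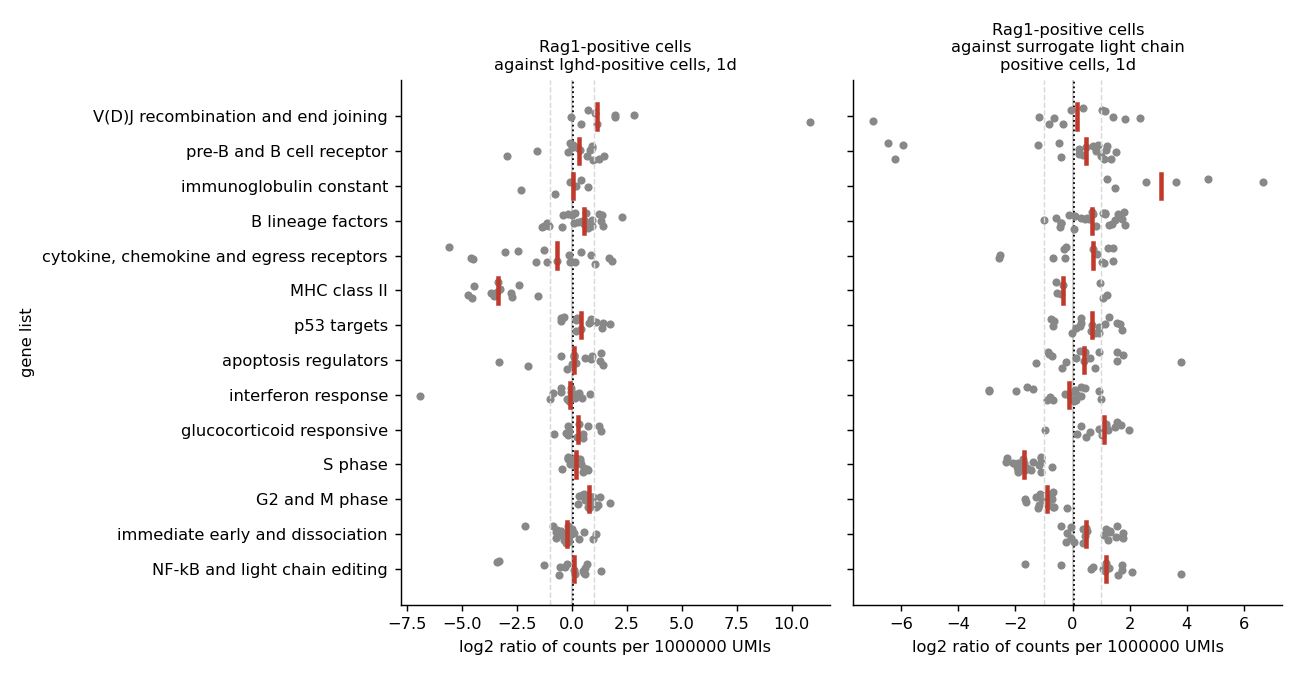
Log2 ratios of single genes (grey points) and their medians (red bars) by list in Rag1-positive cells of 1d, against Ighd-positive cells (left) and surrogate light chain positive cells (right); dashed lines mark 2-fold, and the outermost points of the top 3 lists include genes of the cell rules. MHC class II stood lowest on the left (median -3.37), and S phase on the right (median -1.69).

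Division was rarer in members than in the cells before them. A cell was counted as cycling with UMIs of at least 2 of Mki67, Top2a, Ccnb1, Cdk1, Birc5 and Ube2c after thinning to 1000 UMIs. In 1d, 37 of 445 members were (8.31%, 5.92 to 11.3), with 6 shallower cells left out, against 5.41% of 351 Ighd-positive and 36.5% of 230 surrogate light chain positive cells. Without thinning, the shares were 12.4%, 9.32% and 63.9%. The 56 cycling members found without thinning were deep, at a median of 6988.5 UMIs beside 2360 for the other 395. Their Ly6d level was 768 against 2812, Sox4 751 against 2016 and Igkc 2869 against 4887. All 17 compared G2 and M phase genes had a ratio above 1 against Ighd-positive cells of 1d, 4 of them of at least 2, while 3467 of all 6264 genes were above 1 and 5.54% at least 2-fold higher. In 7d, 1 of 12 members was cycling and held all 10 Mki67 UMIs.

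At full depth, most members of 1d met the rule for 1 light chain, read from constant gene UMIs. Kappa cells, with at least 5 Igkc UMIs and 5 times the lambda count, were 278 of 451 (61.6%, 57.0 to 66.2), and lambda cells by the reverse rule were 36 (7.98%, 5.65 to 10.9). Another 64 (14.2%) had under 5 UMIs of either, 10 of which (2.22% of all) had none, and the remaining 73 (16.2%) met neither rule. Thinned to 1000 UMIs, kappa was 35.3% and lambda 4.94%. Among Ighd-positive cells of 1d, 50.8% were kappa and 6.50% lambda. Surrogate light chain positive cells of 1d, which were deeper, were 46.5% kappa and 0.435% lambda. With thinning, kappa was 36.8% of Ighd-positive and 9.13% of surrogate light chain positive cells. In 7d, 10 of 12 members were kappa and 1 lambda.

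Kappa and lambda members of 1d also differed in other genes. Lambda members had a Sox4 level of 3200 against 1353 in kappa members, Cxcr4 2516 against 1506, Ighm 10890 against 6976 and Ly6d 3277 against 1790. They had less Cd24a (761 against 1447), a surface protein of immature B cells. For each of these genes the counting intervals of the kappa and lambda members did not overlap. No Mki67 UMI was seen in the 36 lambda cells, against a level of 420 in kappa cells. The lambda cells were shallower, with a median of 1912.5 UMIs against 2805.5. The cycling members found without thinning all had an Igkc UMI. For these genes they differed from the other members in the same directions as kappa from lambda members. Their Ighm level was 4797 against 9049, Cxcr4 1253 against 1750 and Cd24a 2008 against 1065. The parts of depth and of cycling in the kappa and lambda differences were not tested. Members with under 5 light chain UMIs had Il7r at 342 and Irf4, a factor of light chain opening, at 684, beside 437 in kappa and 271 in lambda members.

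Unspliced or germline V segments could not be told apart from joined ones in these 3' counts. UMIs of kappa V genes were seen in 132 of 451 members of 1d, against 41 of 354 Ighd-positive and 43 of 230 surrogate light chain positive cells. Lambda V genes were seen in 29 members and heavy chain V genes in 25.

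**Figure D5:**
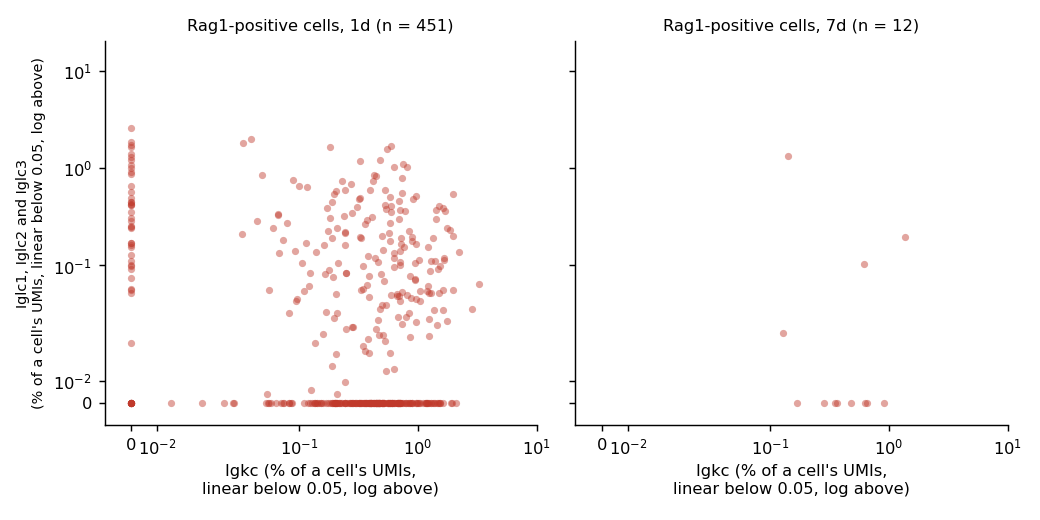
Igkc (x axis) and summed Iglc1, Iglc2 and Iglc3 (y axis) as a percent of each cell's UMIs in Rag1-positive cells of 1d and 7d, on axes that are linear below 0.05 and logarithmic above. In 1d, 49 cells had no Igkc UMI and 215 no lambda UMI, and all 12 cells of 7d had Igkc.

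Between the days, members had 12 cells in 7d to set against 451 in 1d. Of 4509 compared genes, 1542 (34.2%) were past 2-fold, 316 (7.01%) higher in 7d and 1226 (27.2%) lower. TMM scaling put the median of all genes at -0.24 instead of 0.01. Without the member richest in haemoglobin the count was 1666. Ly6d (ratio 0.890, 0.687 to 1.14), Ighm (0.907, 0.794 to 1.03), Igkc (0.970, 0.813 to 1.15), Sox4 (0.983, 0.737 to 1.29), Spib (1.08, 0.665 to 1.66) and Blnk (1.19, 0.859 to 1.61) all had intervals that span 1. Of 6 compared genes of V(D)J joining other than Rag1, 4 had a ratio of at most 0.5 and none of at least 2, beside 27.2% of all genes at most 0.5. These were Xrcc6, Polm, Lig4 and Paxx. Their 7d UMIs were 6, 2, 0 and 0, and each interval spans 1. Lef1 had no UMI in 7d against 246 UMIs in 1d (interval of the ratio 0 to 0.688).

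A few genes stood apart between the days. Pim1, a survival kinase induced by cytokines, was at 1503 in 1d and 3147 in 7d (2.09, 1.70 to 2.55), beside 1.23 in Ighd-positive cells. Bach2 had a ratio of 1.61 (1.16 to 2.18) in members and 0.648 in Ighd-positive cells. Slc1a5, a glutamine carrier, had a ratio of 2.36 (1.53 to 3.5), Mef2d 2.55 (1.65 to 3.78), Il17ra 2.95 (1.5 to 5.29) and B2m, the light chain of MHC class I, 1.37 (1.10 to 1.68). Bbc3, the p53 target PUMA, had a ratio of 2.43 (1.24 to 4.33) from 12 UMIs in 7d. Pttg1 had 5 UMIs in 7d (3.73, 1.17 to 9.20) and none with cells thinned to 1000 UMIs. Hspa1b, a heat shock protein, was at 1487 in 1d and 61.1 in 7d from 2 UMIs (0.0411, 0.00497 to 0.149), beside 1.99 in Ighd-positive cells. Jun, an immediate early factor, went from 1150 to 428 (0.372, 0.203 to 0.626). S100a9, a neutrophil protein, had a ratio of 0.283 (0.214 to 0.367), which was 1.07 without called doublets and 1.55 with thinned cells. The differences between the sets in these ratios were not tested. Heat shock and immediate early genes also respond to digestion of tissue, whose part was not tested.

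The 2 members of Ctrl had 998 and 2375 UMIs, 1 Rag1 UMI each, Ly6d UMIs of 7 and 5 and no UMI of Ighd, Spib, Il7r or Mki67. They carried 47 Ighm and 13 Igkc UMIs together, and allow no comparison.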

How the data were processed

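The deposited matrices hold counts of UMIs per gene and barcode in 3 libraries of jaw cells. Per the submitters' processing notes, the tools were CASAVA 1.8, Cell Ranger and Seurat and the build was mm10; the file headers name Cell Ranger 6.1.1. How cells were called, and with which annotation release, is not given in the sources used here. Barcode and gene tables the authors deposited name the cells and genes and hold no measurement.

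The rule for Rag1-positive cells was read on raw counts, as were those of both comparison sets. Counts were summed over cells and given per 1000000 UMIs. Ratios carry exact conditional 95% intervals and shares exact (Clopper-Pearson) ones, computed with Python 3.11.15 and scipy 1.17.1. Genes were compared with at least 50 UMIs over both sets and called at a ratio of at least 2 or at most 0.5. List medians used a pseudocount of 0.5 UMI. No doublets were removed in the main values; Scrublet in scanpy 1.11.5, TMM factors of edgeR 4.0.16 in R 4.3.3, a stricter filter, other minimums, thinning to 1000 UMIs and subtraction of 5% free RNA were alternatives. The comparison with surrogate light chain positive cells, genes named in 1d alone, list counts under TMM scaling and the alternatives without 1 member of 7d were added after seeing the data. The scripts were tested on simulated data.

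Genes were named by a rule: up to 12 per side and comparison, ranked by how far the interval's nearer end lay from 1, seen in at least 10% of cells where higher, with no cell over 20% of those UMIs. Against Ighd-positive cells both libraries had to lie on the same side. Haemoglobin, immunoglobulin, mitochondrial, ribosomal and sex-linked marker genes and unnamed gene models were left out. List members and markers were named as examples. The members and lists were chosen with earlier results of these data known. Promoters came from RefSeq, GRCm38.p6.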

Additional observations from a re-analysis of the deposited data

Results flagged for a closer look

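Cd40, the receptor for T cell help, was higher in 7d than in 1d in Rag1-positive cells (7 UMIs, level 214 against 59.0, ratio 3.62, interval 1.42 to 7.78) and lower in Ighd-positive cells (ratio 0.409). Col5a3 also had ratios on opposite sides of 1: in Rag1-positive cells 2.33 (9 UMIs in 7d, interval 1.05 to 4.52), and in Ighd-positive cells 0.0599. The latter came from 26 UMIs in 1d and from 1 of 240 cells with a UMI in 7d. The Ighd-positive cells of 1d were mixed, and the part of their composition in these ratios was not tested. In both genes the intervals of the paired ratios lay on opposite sides of 1. With 1 library per day the difference between the sets was not tested.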

How the results depend on the processing

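No paired analysis was possible because each group had 1 library. With at least 2 Rag1 UMIs required, members were 0% of kept cells in Ctrl, 5.07% in 1d and 0.0924% in 7d, with 1.13 and 0.0361 per surrogate light chain positive cell in 1d and 7d, and 0% of those of 7d cycled. With the rule read on cells thinned to 1000 UMIs, the share was 0% in Ctrl and 4.89% in 1d. Over B cells only, shares were 0.143%, 29.2% and 2.14%, and the ratio of 7d to 1d 0.0732. Counts of genes past 2-fold moved with the gene minimum, with thinning and with the Ighd minimum of the comparison cells. Against Ighd-positive cells of 1d the 643 became 325 (thinned), 1072 (at least 3 Ighd UMIs), 1201 (genes with at least 20 UMIs) and 217 (at least 200). For 7d the 1110 became 261, 208, 2582 and 174 in the same order. Between days the 1542 became 499 (thinned), 3464 (at least 20) and 235 (at least 200). Against surrogate light chain positive cells the 1529 became 447 (thinned) and 689 (at least 200). Cycling members of 1d were 12.4% without thinning and 13.7% with 1 of 6 genes. Thinned, kappa was 35.3% in 1d and 41.7% in 7d, and lambda 4.94% in 1d. Directions turned for the receptor list against Ighd-positive cells of 1d (median log2 ratio 0.47 thinned, 0.42 at 200 UMIs), the immediate early list (0.17 with at least 3 Ighd UMIs), S100a9 between days (1.07 without doublets, 1.55 thinned), Pttg1 between days (0, thinned) and Vpreb3 against surrogate light chain positive cells (0.851, thinned). No ratio of a named gene against Ighd-positive cells turned in 405 values of alternatives in 1d or 270 in 7d. Of these values, 69 and 26 left the counting interval. Genes named by the rule were chosen for lying far from 1 in these same counts. For them the lack of turns was thus nearly set in advance. Fewer cells or UMIs enter the thinned and stricter settings; other causes were not tested.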
